A study of Mus musculus with 12 samples.

Results

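Kdr, Flt1, Pecam1 and Cdh5, 4 genes that mark the endothelial lineage, were followed through a BMP6 time course in MEC cells. They were chosen by name, by a rule that uses no measured value though earlier results of these data were known, and are 4 of the 8267 genes that could be named on the array. Each was read by 1 probe. MEC is a mouse endothelial cell line of intraembryonic origin, and BMP6 is a secreted ligand of the bone morphogenetic protein branch of the TGF-beta superfamily. Cells were mock-treated (control) or given BMP6 for 4, 12 or 24 h, with 3 two-colour Agilent oligonucleotide arrays per group and 12 in all. The design text calls the replicates independent biological ones. The groups share the same cell line, no genetic change is named, and neither a BMP6 dose nor a time for the controls is given in the sources used here. The Cy5 channel held RNA of the cells, and the Cy3 channel held universal mouse reference RNA on every array. The series title names cyclooxygenase 2 and prostanoids as its theme. The comparisons below ask whether the endothelial genes themselves moved.

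Kdr encodes VEGF receptor 2, the main signalling receptor for VEGF-A on endothelial cells. Flt1 encodes VEGF receptor 1, which binds VEGF-A tightly, signals weakly, and in its soluble form acts as a decoy that keeps ligand away from Kdr. Pecam1 and Cdh5 encode the adhesion proteins CD31 and VE-cadherin. Both sit at contacts between endothelial cells, where VE-cadherin is tied to the actin skeleton through catenins and restrains signalling by Kdr. Pecam1 is also made by leukocytes and platelets, whereas Cdh5 is largely confined to endothelium.

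Of the 4 genes, Flt1 at 4 h was the one that passed a test against control. Promoters of the receptor pair are shown because Flt1 passed the test at 4 h and Kdr did not. Whether the 2 receptors differ in their change was not tested. The 95% interval of Kdr at 4 h, -0.13 to 0.27, includes the Flt1 difference of 0.23. The Flt1 call was lost in some fits, as given below. The promoters come from RefSeq (GRCm38.p6) and run from 250 bases before to 50 bases after the annotated start, on the strand of the gene. The Flt1 stretch lies at chr5:147725962-147726261 and that of Kdr at chr5:75978406-75978705, both on the minus strand. Capitals mark matches to 6 short motifs, searched on both strands. The letters AGGAAG stand for the core motif of ETS factors. TGACGT is the half-site of the cyclic AMP response element (CRE), GGGCGG is the GC box, and TATAAA is the TATA box. GGCGCC is a motif of the BMP-type Smad proteins, and CAGGTG is the E-box of Snail-type repressors.
Flt1: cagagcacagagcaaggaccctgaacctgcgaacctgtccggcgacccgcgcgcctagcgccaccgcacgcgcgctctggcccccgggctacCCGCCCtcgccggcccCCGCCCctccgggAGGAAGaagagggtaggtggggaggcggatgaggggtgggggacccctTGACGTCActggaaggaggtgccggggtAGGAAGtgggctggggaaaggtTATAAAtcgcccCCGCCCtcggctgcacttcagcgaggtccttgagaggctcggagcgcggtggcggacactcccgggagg
Kdr: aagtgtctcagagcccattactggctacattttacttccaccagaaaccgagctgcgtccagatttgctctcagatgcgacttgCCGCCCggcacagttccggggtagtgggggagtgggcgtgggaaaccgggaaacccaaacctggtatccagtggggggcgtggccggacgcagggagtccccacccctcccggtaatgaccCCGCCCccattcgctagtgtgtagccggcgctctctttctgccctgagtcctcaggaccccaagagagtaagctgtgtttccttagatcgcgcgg

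The Flt1 window holds the ETS motif at 129 and 53 bases before the start, a pair of overlapping CRE half-sites, the first of them 81 bases before the start, a TATA box at 31 and GC boxes at 158, 142 and 19. The Kdr window holds GC boxes at 166 and 45 bases before the start and no match to the letters searched for the other motifs. Neither window holds the Smad or the Snail motif. Among 32851 promoter windows of this length, 35.4% hold the ETS motif, 7.51% the CRE half-site, 35.7% the GC box, 13.6% the TATA box, 11.9% the Smad motif and 20.2% the E-box. A match is a string of letters and not a binding site, and a missing match says only that these letters are not in this window. Pecam1 and Cdh5 have no window in the table.

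Each value is a log ratio, cells to reference RNA, taken as log2. Every fold below rests on that base. Neither the base of the log nor the direction of the ratio is given in the sources used here, and cells over reference is the likely direction from the dyes. If the ratios ran the other way, every rise below would be a fall, every fall a rise, and every level would change sign, while intervals would mirror and p-values would stay. Gene names depend on an inferred order of the probes on the grid, found from how well probes of the same gene match. Differences were tested with limma over all 12 arrays and all 8267 genes, two-sided, with the replicate number of the sample title as a block and Benjamini-Hochberg adjustment. The fit without the block is given where it changes a call of the 4 genes, and without it no gene of the wider lists below was called at 4, 12 or 24 h. The same control arrays serve all 3 times.

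In control cells, all 4 genes lay below the reference. The control mean was -0.50 ± 0.070 for Flt1, -1.25 ± 0.219 for Kdr, -1.42 ± 0.241 for Pecam1 and -1.62 ± 0.084 for Cdh5 (SD, n = 3). These are ratios to the reference for each gene and not abundances that can be set against each other. Read as log2, the Cdh5 transcript was 3.07-fold below the reference, Pecam1 2.68-fold, Kdr 2.39-fold and Flt1 1.41-fold. Each level differed from 0 in limma without the block (adjusted p 4.67e-06 for Flt1, 1.6e-07 for Kdr, 2.53e-06 for Pecam1 and 3.94e-09 for Cdh5), as did 75.7% of all genes, and 36% of all genes differed on the lower side. Counted over all named genes, 147 had a lower control ratio than Cdh5, 206 than Pecam1, 266 than Kdr and 1264 than Flt1. No spot intensities were used here, so whether a probe was above background is not known. Cells were in Cy5 and the reference in Cy3 on every array, so a dye effect of a probe cannot be told apart from its level.

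The label of an endothelial line was set against marker genes. Of 16 endothelial markers 6 were measured, and all 6 lay below the reference in control cells. Beside the 4 members these were Cd34, a surface sialomucin of endothelial and progenitor cells, at -0.80 ± 0.346, and Esam, an endothelial junction protein, at -0.39 ± 0.268. A wider list of endothelial genes had 19 of 41 members measured. Its median control ratio was -0.59, against 0.03 over all genes, and Procr, the endothelial protein C receptor, was the single member above the reference, at 0.34 ± 0.150. The markers of other cell types did not all lie lower. Fibroblast markers had a median of 0.23 over 5 of 9 and ran from the matrix gene Postn at -4.30, the lowest ratio of all named genes, to the transcription factor Prrx1 at 0.63. Genes listed as neural markers had a median of 0.17 over 3 of 5, from Map2 at -0.76 to Cdh2 at 1.65 ± 0.336. Cdh2 encodes N-cadherin, which is not confined to neural cells. Smooth muscle and pericyte markers had a median of -0.23 over 6 of 8. Epithelial markers had a median of -1.24 over 6 of 7, blood cell markers -0.70 over 4 of 10, and hepatocyte markers -3.10 over 3 of 4. None of the 4 platelet markers could be named on the array. A ratio below the reference does not show that a transcript was absent, since it also depends on how much of it the reference holds. For every gene here, a lower level in all cells and a smaller share of cells that carry the transcript cannot be told apart.

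**Figure D1:**
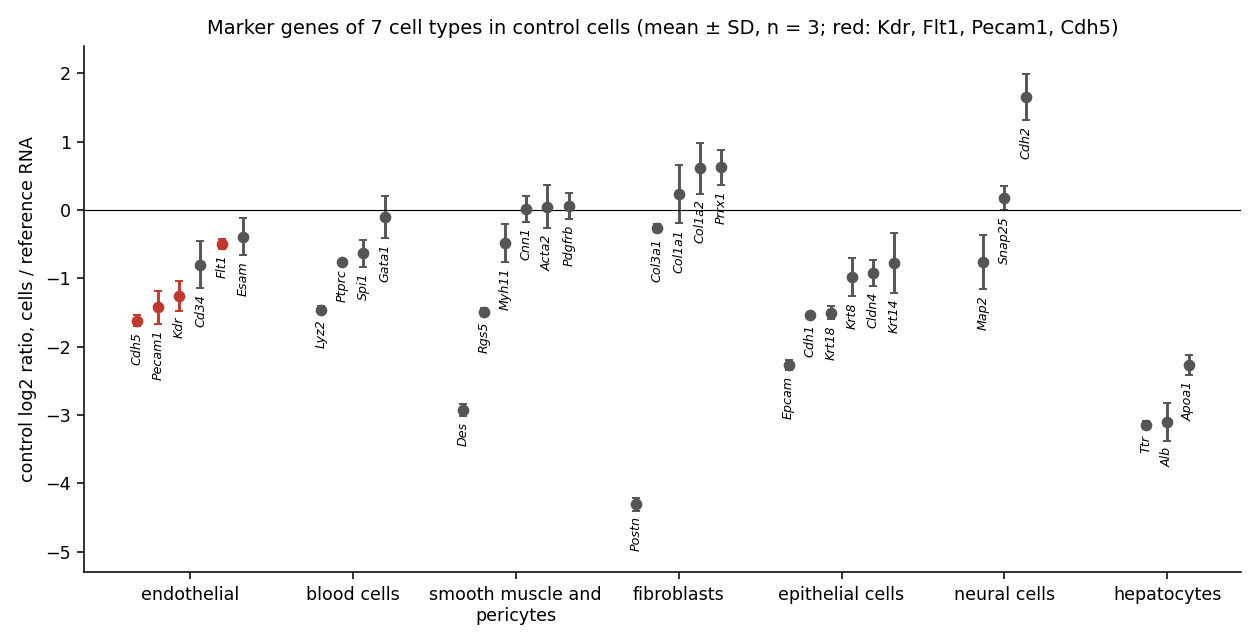
Control log2 ratio of cells to reference RNA for each measured marker gene of 7 cell types, as mean and SD over 3 arrays, with Kdr, Flt1, Pecam1 and Cdh5 in red. All 6 endothelial markers lie below 0, while fibroblast markers lie on both sides and Cdh2 stands highest at 1.65.

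Flt1 rose at 4 h of BMP6 and was back near control at 12 and 24 h. Its log2 ratio was -0.50, -0.57 and -0.43 in control replicates 1, 2 and 3, and -0.32, -0.27 and -0.20 in the matching arrays at 4 h. At 12 h it was -0.55, -0.64 and -0.54, and at 24 h -0.40, -0.64 and -0.50. All 3 arrays at 4 h lay above all 9 other arrays, as they did for 1.37% of all genes, a comparison chosen after the values were seen. Arrays of 4 h and control did not overlap for 10.1% of all genes. Every pair was higher at 4 h, by 0.17, 0.29 and 0.23, as was the case for 14.7% of all genes.

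The mean difference at 4 h was 0.23 on the log2 scale, or 1.17-fold (SE 0.055, 95% interval 0.11 to 0.35, adjusted p 0.0366). With the block, 6.02% of all genes were called at 4 h, 2.27% as higher, and Flt1 was the 1 member of 4 that was. It ranked 411 of 8267 genes by p. Without the block the interval was 0.07 to 0.39 and the adjusted p 0.346 (0.169% of genes called), and 0 of the 4 members passed (limma, with Flt1 alone under an unadjusted p of 0.05). The methods' t-test gave Flt1 an unadjusted p of 0.0126 (two-sided, not an exact test) and called 0 members after adjustment. With limma and the block fitted and adjusted over all 20280 probes in place of named genes, the adjusted p was 0.0712.

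The Flt1 call at 4 h was also lost when single arrays were left out of the blocked limma fit. The adjusted p was 0.0746, 0.125 and 0.0602 without control replicate 1, 2 or 3, and 0.147 and 0.138 without 4 h replicate 2 or 3. It was 0.0592, 0.0605 and 0.0659 without 12 h replicate 1, 2 or 3 and 0.0586 without 24 h replicate 3. Flt1 remained called without 4 h replicate 1 or without 24 h replicate 1 or 2. The difference itself stayed between 0.19 and 0.28 in all these fits and in those without all 4 arrays of a replicate number, which lost the call too (adjusted p 0.0573, 0.327 and 0.191 without number 1, 2 or 3).

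At the later times Flt1 lay close to control, at -0.08 at 12 h (95% interval -0.20 to 0.04, adjusted p 0.555) and -0.02 at 24 h (-0.14 to 0.11, adjusted p 0.965). At 12 h it was lower than control in 3 of 3 pairs, as were 17.5% of all genes. With the block, the intervals allow a fall of up to 0.20 at 12 h, and a change as large as the rise at 4 h lies outside them. Without the block, the 12 h interval was -0.24 to 0.08 and includes a fall of that size. In order of level, 4 h stood highest, followed by control, 24 h and 12 h. Of these neighbours, 4 h and control differed and the others did not differ beyond their spread. Flt1 fell from 4 h to 12 h by 0.31 (SE 0.055, adjusted p 0.0384) and from 4 h to 24 h by 0.25 (adjusted p 0.0354), lower in 3 of 3 pairs each time. In those contrasts 1.29% and 4.05% of all genes were called. The arrays of both times did not overlap for 9.14% and 12% of genes, and all 3 pairs were lower for 19.1% and 18.6%. Neither fall of Flt1 passed limma without the block (adjusted p 0.411 and 0.353, where 0 and 0.0726% of genes were called). Over the 3 times together, the moderated F test of limma passed for Flt1 (F = 12.1, adjusted p 0.0312), as it did for 4.98% of genes, and not without the block (0.392, with 0.0484% of genes called). From 12 h to 24 h Flt1 differed by 0.06 (adjusted p 0.851, 0.109% of genes called).

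Both falls after 4 h were lost as well when some arrays were left out. From 4 h to 12 h the adjusted p was 0.053 without control replicate 2, 0.196 and 0.148 without 4 h replicate 2 or 3, 0.106, 0.164 and 0.22 without 12 h replicate 1, 2 or 3, and 0.0598 and 0.0693 without 24 h replicate 2 or 3. From 4 h to 24 h it was 0.0529, 0.155, 0.128, 0.0574, 0.0586, 0.0636, 0.178 and 0.152 without the same 8 arrays. The F test missed the threshold without these arrays too, at 0.0563 to 0.169.

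**Figure D2:**
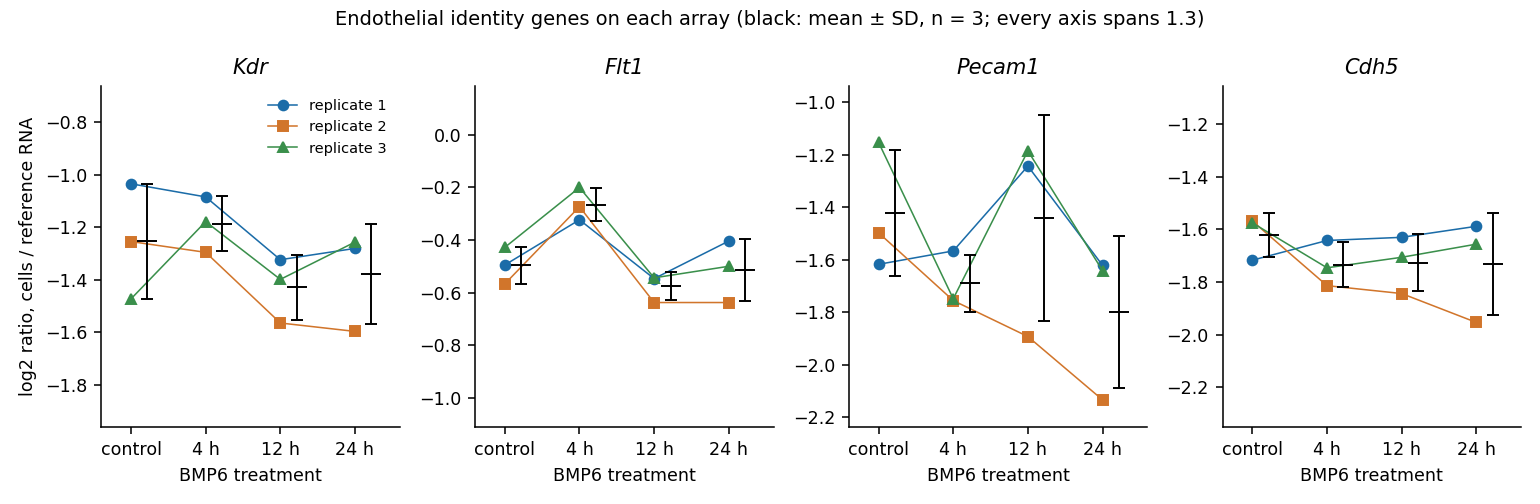
Log2 ratio of cells to reference RNA on each of the 12 arrays, 1 panel per gene, with coloured points and lines joining arrays of the same replicate number and black bars giving mean and SD (n = 3). The 4 h points of Flt1 sit between -0.32 and -0.20, above all its other arrays, whereas in Pecam1 the replicates cross.

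Kdr showed no call at any time. Its ratio was -1.03, -1.25 and -1.47 in the controls and -1.08, -1.30 and -1.18 at 4 h, so the groups overlapped. It was -1.32, -1.56 and -1.40 at 12 h and -1.28, -1.60 and -1.26 at 24 h. Control replicate 3 was the lowest of the controls, and in that replicate number every treated array was higher than its control, while in replicates 1 and 2 every treated array was lower. At 12 h 1.89% of all genes were called with the block, and none of the members (limma; 0 also at an unadjusted p under 0.05 and by the methods' t-test).

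The mean difference of Kdr from control was 0.07 at 4 h (95% interval -0.13 to 0.27, adjusted p 0.721), -0.18 at 12 h (-0.37 to 0.02, adjusted p 0.392) and -0.12 at 24 h (-0.32 to 0.07, adjusted p 0.807). A fall of up to 0.37 on the log2 scale at 12 h thus lies within the interval. From 4 h to 12 h Kdr was lower in 3 of 3 pairs, with differences of -0.24, -0.27 and -0.22 and no overlap of the arrays. In that contrast 44% of all genes moved one way in all 3 pairs, and the arrays did not overlap for 9.14%. The mean difference of -0.24 for Kdr had an unadjusted limma p of 0.0208 and an adjusted p of 0.238. The order of its levels was 4 h, control, 24 h and 12 h, with no neighbours that differed. Without control replicate 3, Kdr passed at 12 h against control (-0.31, adjusted p 0.0238) and at 12 h against 4 h (adjusted p 0.0383), and its 4 h value turned to -0.07. Flt1 and Kdr had the same order of mean levels, with 4 h highest and 12 h lowest, but whether their changes differ from each other was not tested.

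Pecam1 lay lowest at 24 h but did not pass. Its ratio was -1.62, -1.50 and -1.15 in controls and -1.57, -1.76 and -1.75 at 4 h. At 12 h it was -1.24, -1.89 and -1.19, and at 24 h -1.62, -2.13 and -1.64. All groups overlapped except control and 24 h, where the highest treated and the lowest control array were nearly equal. Arrays of these 2 groups did not overlap for 4.48% of all genes. Over the 12 arrays Pecam1 spanned 0.98, the widest range of the 4 genes, against a median of 0.40 over all genes.

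The difference of Pecam1 from control was -0.27 at 4 h (95% interval -0.58 to 0.05, adjusted p 0.321), -0.02 at 12 h (-0.33 to 0.30, adjusted p 0.975) and -0.38 at 24 h (-0.69 to -0.06, adjusted p 0.53). At 24 h the 3 pairs differed by -0.004, -0.64 and -0.49, and the unadjusted limma p was 0.0231. At that time 0.169% of genes were called and 0 of the 4 members (1 at an unadjusted p under 0.05 with the block, 0 without it or by the methods' t-test). Pecam1 also lay 0.36 lower at 24 h than at 12 h (adjusted p 0.524). In order of level, control was followed by 12 h, 4 h and 24 h, and no neighbours differed. Blood cells also make Pecam1, though all samples are of the MEC line. The 4 measured blood cell markers ran from -1.46 (Lyz2) to -0.10 (Gata1) in controls. Their median was -0.70 in controls, -0.77 at 4 h, -0.84 at 12 h and -0.93 at 24 h. Whether blood cells had a part in the Pecam1 values was not tested.

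Cdh5 lay slightly below control at each time and did not pass. Its ratio was -1.72, -1.57 and -1.58 in controls, -1.64, -1.81 and -1.75 at 4 h, -1.63, -1.84 and -1.71 at 12 h and -1.59, -1.95 and -1.66 at 24 h. The groups overlapped throughout. In replicate 1 every treated array was higher than its control, and in replicates 2 and 3 every treated array was lower. The mean difference was -0.11 at each time, with 95% intervals of -0.29 to 0.07 at 4, 12 and 24 h (adjusted p 0.477, 0.594 and 0.807). The intervals leave room for a fall of 0.29 or a rise of 0.07. Between times, Cdh5 differed by at most 0.01. Its order of level was control, 12 h, 24 h and 4 h, and no neighbours differed.

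**Figure D3:**
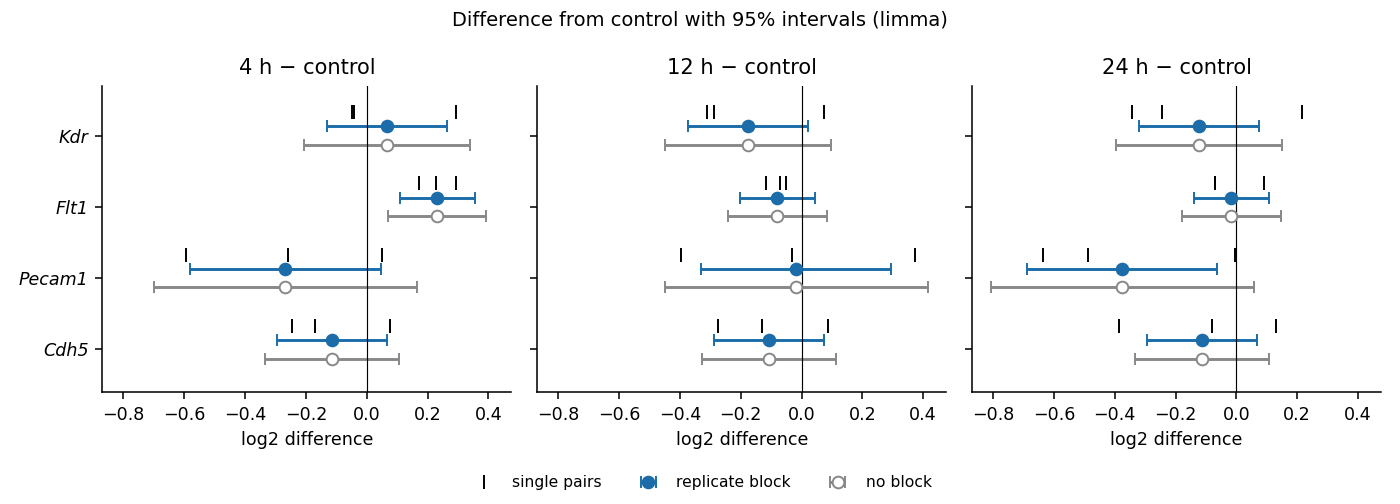
Log2 difference from control at 4, 12 and 24 h for each gene, with 95% limma intervals from the fit with the replicate block (blue) and without it (grey), and ticks for the 3 single pairs. The Flt1 interval at 4 h, 0.11 to 0.35 with the block, lies above 0, and that of Pecam1 at 24 h lies below 0 with the block only, with an adjusted p of 0.53.

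Treatment group held 76.7% of the sum of squares of Flt1 over the 12 arrays and replicate number 12.5%. For Kdr these shares were 33.6% and 37.1%, for Pecam1 33.6% and 36.1%, and for Cdh5 17.8% and 33.1%. The medians over all genes were 18.9% and 51.2%. Averaged over the 4 groups, replicate 2 was the lowest of the 3 numbers for each of the members, at -1.43 for Kdr, -0.53 for Flt1, -1.82 for Pecam1 and -1.79 for Cdh5. No label says what arrays of the same number share.

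Among the ligands and receptors of the VEGF family, Flt1 and Vegfd were the genes called against control. Of 10 genes 8 were measured. At 4 h 1 rose and 1 fell in the blocked limma fit (6.02% of all genes called, 2.27% as higher and 3.75% as lower). At 12 h 1 fell (1.89% called, 1.42% as lower). At 24 h 0 passed (0.169% called), with 1 at an unadjusted p under 0.05 with the block and 0 without it or by the methods' t-test. The medians were 0.09, 0.00 and -0.00, against -0.01, -0.00 and -0.01 over all genes. Vegfd, a ligand of Flt4 that in mouse does not bind Kdr, stood at 1.58 ± 0.077 in controls and fell by 0.43 at 4 h (SE 0.052, adjusted p 0.00177) and by 0.39 at 12 h (adjusted p 0.00647; 0.0635 without 12 h replicate 2). It was at -0.03 at 24 h. Without the block its adjusted p was 0.107 at 4 h and 0.397 at 12 h. Vegfa, the ligand shared by Flt1 and Kdr, differed by 0.10, -0.04 and 0.06 at the 3 times (adjusted p 0.462, 0.837 and 0.887). Vegfc, the other ligand of Flt4, differed by -0.04, 0.07 and -0.20, and at 24 h its 95% interval was -0.38 to -0.03 (unadjusted limma p 0.028, adjusted p 0.556). Flt4, the third VEGF receptor, differed by 0.10, 0.17 and 0.10, with an adjusted p of 0.106 at 12 h. The co-receptor Nrp1 differed by 0.08, 0.04 and 0.01 and Nrp2 by 0.16, 0.09 and 0.08, none with a call.

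**Figure D4:**
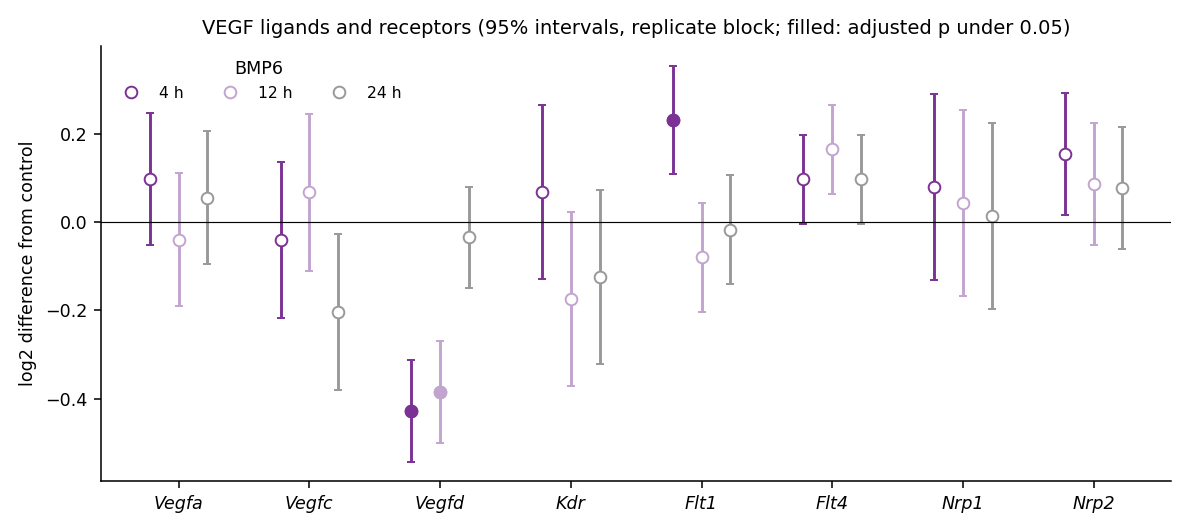
Log2 difference from control with 95% intervals (replicate block) for the 8 measured VEGF ligands and receptors at 4, 12 and 24 h, with filled points where the adjusted p is under 0.05. Filled points are Flt1 at 4 h, at 0.23, and Vegfd at 4 and 12 h, at -0.43 and -0.39.

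Among receptor tyrosine kinases related to the VEGF receptors, 10 of 12 were measured and 2 rose at 4 h, Flt1 and Fgfr3 (2.27% of all genes called as higher). Fgfr3, a fibroblast growth factor receptor, rose by 0.29 at 4 h (adjusted p 0.0182; 0.0865 without 4 h replicate 2) and by 0.28 at 12 h (adjusted p 0.0469, lost without 10 of the 12 arrays in turn, up to 0.193). Without the block it did not pass (0.379 and 0.897). At 24 h Fgfr3 differed by 0.29 (adjusted p 0.126) and 0 of the 10 passed, with 2 at an unadjusted p under 0.05. Fgfr1, with the highest control ratio of this list at 0.07, differed by 0.03, -0.20 and -0.11 (adjusted p 0.186 at 12 h). Kit, the stem cell factor receptor, had the lowest control ratio of this list, -1.89, and differed from control by 0.01, -0.20 and -0.17 at the 3 times.

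Downstream of the receptors, 5 of 22 signalling genes were measured and 0 passed at any time (limma with the block; 0 at an unadjusted p under 0.05 too). Their medians were -0.03, -0.03 and 0.02. Akt1, a kinase activated through Kdr, had the highest control ratio of this list, 0.78, and differed by -0.03, -0.07 and -0.05 at the 3 times. The kinase gene Prkcb, with the lowest at -0.87, differed by -0.08, -0.03 and 0.02, and Pik3r1, a regulatory subunit of PI3 kinase, by -0.07, -0.05 and 0.02. Rcan1, a calcineurin inhibitor induced by VEGF in endothelium, differed by 0.01, -0.01 and 0.08. Of 12 genes of the angiopoietin and apelin pathways 7 were measured and 0 passed, with 1 at an unadjusted p under 0.05 at 4 h, the Tie2 ligand Angpt1 at -0.17 (adjusted p 0.12) and then -0.03 and -0.01. The adrenomedullin receptor gene Calcrl differed by -0.07, -0.19 and -0.03 (adjusted p 0.355 at 12 h). Its partner Ramp2, with the lowest control ratio of the list at -1.40, differed by -0.09, -0.07 and -0.04. The phosphatase Ptpn11, which binds phosphorylated Pecam1, differed by 0.00, -0.12 and -0.16 at the 3 times, with no call.

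At cell junctions, 21 of 35 genes were measured, Pecam1 and Cdh5 among them. At 4 h 0 passed with the block and 4 had an unadjusted p under 0.05, against 1 without the block and 1 by the methods' t-test. At 12 h 1 fell, where 1.89% of all genes were called and 1.42% as lower. It was Jup, which encodes plakoglobin, a catenin that binds the tail of VE-cadherin. Jup fell by 0.30 at 12 h (SE 0.043, adjusted p 0.00857; 0.354 without the block) and was at -0.03 at 4 h and -0.04 at 24 h. Its call was lost without control replicate 2 or 12 h replicate 1 or 2, with an adjusted p of up to 0.0669. Ctnnb1, which encodes beta-catenin, another partner of VE-cadherin, differed by -0.12, -0.17 and -0.15 at the 3 times with no call. The list medians were -0.03, -0.02 and -0.04.

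Among classical cadherins, 6 of 13 were measured. Of these 1 fell at 4 h (6.02% of all genes called, 3.75% as lower). Cdh11, a mesenchymal cadherin, fell by 0.45 at 4 h (SE 0.096, adjusted p 0.0251; 0.704 without the block) and stood at -0.12 and 0.17 later. Its call was lost without control replicate 2 or 3 or 4 h replicate 2 or 3 (up to 0.0851). Cdh2 differed by -0.20, -0.07 and 0.11 (adjusted p 0.116 at 4 h), beside the -0.11 of Cdh5 at each time. Against control 0 of the 6 passed at 12 and 24 h, also at an unadjusted p under 0.05. From 4 h to 24 h Cdh11 and Cdh2 rose in limma with the block, by 0.62 (adjusted p 0.00802) and 0.31 (adjusted p 0.0338). In that contrast 1.85% of all genes were called as higher, and without the block the adjusted p was 0.478 and 0.982.

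Among transcription factors known in endothelium, 21 of 38 were measured. Of these 3 rose at 4 h (2.27% of all genes called as higher) and 1 at 12 h (0.472%), and 0 passed at 24 h (0.169% called either way; 3 at an unadjusted p under 0.05, 2 without the block). The list, Snai1 included, was chosen with earlier results of these data known, so these counts are not independent of them. Elk3, an ETS factor, rose by 0.41 at 4 h (SE 0.062, adjusted p 0.00418) and passed without each array in turn. Snai1, a repressor of cadherin genes, rose by 0.79 at 4 h (adjusted p 0.00243) and 0.63 at 12 h (0.0145; up to 0.101 without control replicate 1 or 2 or 12 h replicate 1 or 2). Klf6 rose by 0.19 at 4 h (adjusted p 0.0466), a call lost without 11 of the 12 arrays in turn (up to 0.167). Without the block none of these passed, with 0.069 for Elk3 and 0.0555 for Snai1 at 4 h. Prox1, the lymphatic factor, had the lowest control ratio at -2.83 and differed by -0.10, 0.03 and -0.17 at the 3 times. Gata6, with the highest at 0.78, differed by -0.23, -0.21 and 0.04 (adjusted p 0.153 at 4 h).

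The arterial, venous, lymphatic and Notch list, which also took in BMP pathway genes, had 13 of 26 genes measured. At each of the 3 times 3 rose, where 2.27%, 0.472% and 0.0726% of all genes were called as higher. These were Id1, Id2 and Id3, inhibitors of bHLH factors and textbook targets of BMP signalling. No other gene of the list was called against control at any time, so the count rests on the Id genes alone. Id1 rose by 0.97 at 4 h, 0.97 at 12 h and 1.07 at 24 h, Id2 by 0.84, 1.27 and 1.19, and Id3 by 0.64, 0.79 and 0.92. Of these, Id2 at 24 h was lost without control replicate 1 or 2 or 24 h replicate 2 or 3 (adjusted p of up to 0.0738). The Id1 adjusted p was 0.00058, 0.00205 and 0.00168 with the block and 0.2, 0.533 and 1 without it. Without the block Id2 was at 0.302, 0.317 and 0.924 and Id3 at 0.274, 0.359 and 0.924, so none of these rises passed. The chemokine gene Cxcl12 had the highest control ratio of this list, 3.04, and differed by -0.50, 0.06 and -0.11 (adjusted p 0.13 at 4 h). Notch1, with the lowest at -1.24, differed by 0.08, -0.10 and -0.14 with no call.

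Counted over the wider endothelial list, Flt1 was the 1 of 19 measured genes that passed at 4 h with the block, a share near the 6.02% of all genes. At 12 and 24 h 0 passed (1.89% and 0.169% of all genes), and without the block 0 passed at any time. An unadjusted p under 0.05 with the block was reached by 5 at 4 h, 2 at 12 h and 1 at 24 h. The list medians were 0.05, -0.01 and -0.03 at the 3 times. Procr, the gene of this list with the highest control ratio, differed by 0.40, 0.07 and -0.01 (adjusted p 0.0959 at 4 h).

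Genes with the most similar profiles were ranked by Pearson r over the 12 arrays after the mean of each replicate number was taken off. They were picked from 8267 genes, so high values are bound to occur and carry no test. Closest to Flt1 were Setdb1, a histone methyltransferase, at r = 0.98, the phospholipid scramblase Plscr1 at 0.96 and the single-stranded DNA binding protein Nabp1 at 0.96. Their differences at 4 h were 0.44, 0.37 and 0.18, a direction that the ranking itself favours. Closest to Kdr were the transcription factor Irf8 at 0.96, the activin receptor Acvr1b at 0.93 and Cracdl at 0.92. Pecam1 was followed most closely by Tars2 (0.92), Fastkd2 (0.90) and Ttr (0.86), and Cdh5 by Kif9 (0.94), Syf2 (0.90) and the tight junction gene Cldn4 (0.90). Among the members, Cdh5 ranked 191 for Pecam1 (r = 0.68) and Flt1 ranked 740 for Kdr (r = 0.56), while r between a receptor and an adhesion gene ran from -0.22 to 0.21.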

How the data were processed

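Arrays were scanned with a GenePix 4000B scanner and quantified with GenePix Pro software, and the authors normalized the values with a modified local quantiles method, per the labels. The deposited values, 1 for each of 20280 probes on 12 arrays, were taken as log2 ratios, each array with a mean of 0. Medians of the arrays lay between -0.04 and 0.002 and correlations between arrays from 0.877 to 0.980. The number of arrays limits the precision.

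Probe numbers of the platform annotation were moved to the value rows by the grid order inferred from the data. The first 2 probes of a gene then correlated at r = 0.471 over 1831 genes, against 0.021 in the deposited order. The order was found from this kind of match, so the value is not an independent check of the names. All 11083 listed numbers fell on a row with a value. The 10576 probes with 1 symbol gave 8267 genes, as averages of their probes, and the 507 with several symbols named none.

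limma 3.58.1 in R 4.3.3 (lmFit, eBayes) was run on 12 arrays with the replicate number as a block, and without it for levels. Same-numbered arrays deviated together (all 18 correlations between 0.443 and 0.695, other pairs -0.564 to 0.069), so the titles' numbers were taken to pair the samples. In data simulated from the blocked model for 4 h against control (8267 genes), that fit recovered 66% of changes of 0.3 and 88% of 0.5, with 10 false calls. The fit without the block recovered 14% and 62%, with 1 false call. Since the simulated data followed the blocked model, its advantage was built in and does not choose between the 2 fits. Named list genes are those called in any comparison with control or, in lists without calls, those with the smallest p, those with the extreme control ratios, and a fixed set of partners of the members (Vegfa, Flt4, Nrp1, Ctnnb1, Ptpn11, and Pgf and Ptprb, which matched no named gene). The other genes of the VEGF family and the marker genes were named beside them. Members and lists were chosen with earlier results of these data known. Alternatives were median centring, quantile normalization, 2-group fits, single probes, the deposited order, a trend and robust prior, the methods' t-test and leaving arrays out.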

Additional observations from a re-analysis of the deposited data

Results flagged for a closer look

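The difference of Flt1 from control was not the same at all times. By the limma contrast between the times with the replicate block, the log2 difference was -0.311 from 4 h to 12 h (adjusted p 0.0384) and -0.249 from 4 h to 24 h (adjusted p 0.0354), lower in 3 of 3 pairs each. Of all genes, 19.1% and 18.6% were lower in 3 of 3 pairs. Both contrasts share the 4 h arrays. Without the block the adjusted p was 0.411 and 0.353.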

How the results depend on the processing

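Without the replicate block Flt1 kept its log2 difference but no call: 0.2313 at 4 h, -0.311 from 4 h to 12 h, -0.2487 from 4 h to 24 h and an F of 6.775. Genes called then fell to 14 at 4 h, 0 at 12 h, 0 at 24 h, 0 for 12 h against 4 h, 6 for 24 h against 4 h, 0 for 24 h against 12 h and 4 by the F test, and the block changed no other call of the members. The same 3 Flt1 differences missed the threshold in fits of the 2 groups compared (adjusted p 0.208, 0.082 and 0.146), over single probes (0.0712, 0.0846 and 0.0651, with an F of 10.73) and by the methods' t-test (0.712, 0.865 and 0.666). After quantile normalization Flt1 was at 0.2077 at 4 h (adjusted p 0.0512), Pecam1 at 0.04997 at 12 h, and Cdh5 at 0.01907 for 24 h against 12 h. With centred arrays Cdh5 was at -0.004333 for 24 h against 4 h. The cause was not tested. With the fits of 2 groups 81, 26, 8, 0 and 109 genes were called (4 h, 12 h, 24 h, 12 h and 24 h against 4 h). The methods' t-test called 0, 1, 0, 0 and 1, and 0 for 24 h against 12 h. Quantile normalization called 163 for 12 h against 4 h, and the trend and robust prior 5 for 24 h against 12 h.

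The deposited row order gives each name another probe. Kdr then stood at 0.1953 at 12 h, 0.1397 for 12 h against 4 h, -0.2573 for 24 h against 12 h and 0.4557 in control. Flt1 stood at -0.011 at 4 h, 0.06 at 12 h, 0.071 and -0.01567 for 12 h and 24 h against 4 h, -0.08667 for 24 h against 12 h, an F of 0.5227 and 0.616 in control. Pecam1 was at 0.032 for 24 h against 4 h and 0.308 in control, and Cdh5 at 0.009 for 24 h against 12 h and -0.09267 in control. Genes called were 231, 44, 1, 11, 164, 5 and 116 (4 h, 12 h, 24 h, 12 h and 24 h against 4 h, 24 h against 12 h, F).

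Leaving out single arrays, or all arrays of a replicate number, gave these ranges. For Kdr they were -0.06822 to 0.1446 for 4 h, -0.3109 to -0.09806 for 12 h, -0.294 to -0.015 for 24 h, -0.2728 to -0.2256 for 12 h against 4 h, -0.2824 to -0.1233 for 24 h against 4 h, -0.03978 to 0.1194 for 24 h against 12 h, 1.464 to 18.35 for the F value, -1.364 to -1.145 for the control level. For Flt1 they were 0.1925 to 0.2837 for 4 h, -0.0935 to -0.0615 for 12 h, -0.07678 to 0.02139 for 24 h, -0.3633 to -0.2722 for 12 h against 4 h, -0.3325 to -0.1905 for 24 h against 4 h, 0.002889 to 0.1011 for 24 h against 12 h, 5.1 to 16.79 for the F value, -0.531 to -0.4615 for the control level. For Pecam1 they were -0.4477 to -0.1035 for 4 h, -0.2135 to 0.171 for 12 h, -0.562 to -0.246 for 24 h, 0.093 to 0.443 for 12 h against 4 h, -0.2514 to 0.026 for 24 h against 4 h, -0.5052 to -0.2776 for 24 h against 12 h, 1.513 to 8.697 for the F value, -1.558 to -1.326 for the control level. For Cdh5 they were -0.2181 to -0.01822 for 4 h, -0.2107 to -0.01089 for 12 h, -0.2335 to 0.024 for 24 h, -0.02239 to 0.02928 for 12 h against 4 h, -0.05572 to 0.08778 for 24 h against 4 h, -0.06306 to 0.08044 for 24 h against 12 h, 0.02323 to 4.317 for the F value, -1.646 to -1.571 for the control level. Counts of genes called ran from 20 to 642 for 4 h, 3 to 288 for 12 h, 0 to 16 for 24 h, 0 to 264 for 12 h against 4 h, 6 to 545 for 24 h against 4 h, 0 to 28 for 24 h against 12 h, 2 to 527 for the F test, 5614 to 5946 for the control level.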
